A study of Chlamydomonas reinhardtii with 12 samples.

Results

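Lines A2 and D2 are a pair of phytoene desaturase (PDS) knockout transformants of the green alga Chlamydomonas reinhardtii, and each was measured here in 1 library against 3 libraries of the parental line. The 5 libraries are part of a series of 12. Identifiers were kept where all 3 parental libraries reached 20 CPM (counts per 1000000 library counts) or where both line libraries had 10 counts or more, which left 2854 of 17744. Of these, 2793 entered by their parental level and 331 by their counts in the lines. Both conditions held for 270 identifiers, and 61 entered by the line counts alone.

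The parental libraries, called WT4, WT5 and WT6 here by their library names (their columns are titled WT1, WT2 and WT3), came from vegetative cells of line CC-3403 with the wild-type genotype. These cells grew in acetate-containing TAP medium with 10 µg/mL arginine. A2 and D2 (columns 2A and 2D) carry the PDS knockout in the same line and grew in TAP without arginine. All cultures were kept in liquid medium in the dark at 25 °C for 4 weeks. The knockout cells were also sorted by flow cytometry to remove transformants with the plasmid but no knockout, and possible revertants. The parental cells have no such step in the labels. Medium, sorting, the plasmid and the knockout therefore cannot be told apart, and 1 library per line gives no replicate of either line. The labels call the parental samples independent without saying whether they were separate cultures, so p-values speak only to the spread among these libraries, which may be technical.

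Phytoene desaturase catalyses an early desaturation step in carotenoid synthesis, in which colourless phytoene is converted toward coloured carotenoids. Carotenoids are bound with chlorophyll in the light-harvesting antennae and photosystems of the chloroplast, where they take part in light capture, assembly and protection against excess light. Unlike many land plants, this alga can make chlorophyll in darkness and can live on acetate, so mutants that cannot live in light can be kept in the dark.

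The files and the gene table used here pair no identifier with a gene symbol. Single identifiers are therefore given without a gene name or an individual role. The 13 lists below (light harvesting, Calvin-Benson cycle and so on) were compiled by identifier from general knowledge of the nuclear gene catalogue of this alga, and no annotation at hand tested that membership. The file holds 140 of their 141 identifiers, and 129 had enough counts to be tested.

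Depth differed widely between the libraries. WT4, WT5 and WT6 had 11768160, 2683856 and 1393032 counts, A2 had 475103 and D2 had 36062. A count of 1 stood for 0.0850 CPM in WT4, 2.11 CPM in A2 and 27.7 CPM in D2, and 0 counts allow up to 6.31 CPM in A2 and 83.2 CPM in D2 (a floor of 3 counts, counting error only). Detected identifiers numbered 14851, 12956 and 11649 in the parental libraries, 8526 in A2 and 3786 in D2. Drawn down to the total of D2, the parental libraries would show 5432, 4733 and 4391 identifiers and A2 3924, so D2 lay below each parental library at equal depth. The intervals and floors cover counting error, and the sources do not say if molecular identifiers were collapsed. These are bulk samples, in which fewer cells of a kind and less RNA per cell cannot be told apart.

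The identifier entered for phytoene desaturase, Cre12.g509650, had 0 counts in both lines. It stood at 75.0 CPM in WT4, 21.6 in WT5 and 47.4 in WT6. The floor of A2 lies below all 3 parental levels, whereas the floor of D2 lies above them, so a loss in D2 alone was not detectable at this depth. Pooled over both lines the level was at least 8.18-fold below the parental mean, or 5.04-fold with Cre07.g323800 left out of the totals. The sources used here do not give the edited position, and only the 3' part of each transcript was counted.

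Cre07.g323800 was the most abundant identifier of A2 and set A2 apart from every other library. It took 2.15% of the counts in WT4, 4.58% in WT5 and 5.33% in WT6. In D2 it took 4.38% (Wilson 95% interval 4.18 to 4.60%), within the parental range. In A2 it took 43.3% (43.1 to 43.4%), and all other identifiers of A2 shared the remainder. The mean of the 2 lines was 19.8 percentage points above the parental mean, and the two-sided exact permutation test gave p = 0.3, where 10 arrangements allow no p below 0.1. Across all identifiers, edgeR's quasi-likelihood test gave a log2 difference of 4.62 ± 0.93 (SE) between A2 and D2, with a Benjamini-Hochberg adjusted p of 0.0155. That call ended without WT5 (adjusted p = 0.255).

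**Figure D1:**
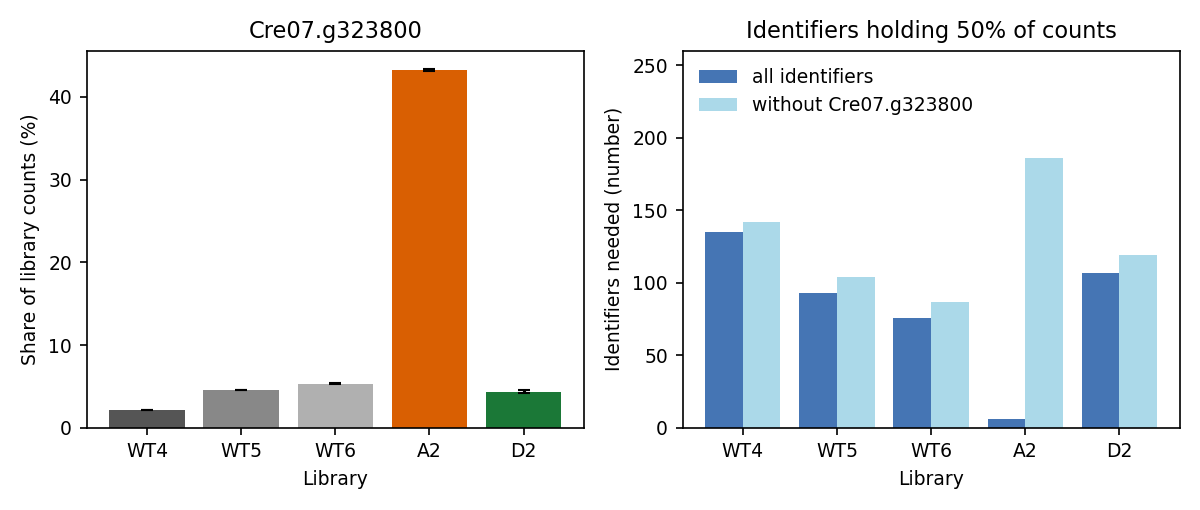
Left, share of library counts taken by Cre07.g323800 in percent, 1 bar per library with its Wilson 95% interval. Right, number of identifiers that together hold 50% of the counts, with and without Cre07.g323800; A2 needs 6 with it and 186 without it.

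The concentration of counts followed from that single identifier. In WT4, WT5 and WT6 135, 93 and 76 identifiers held 50% of the counts, in D2 107 and in A2 6. Without Cre07.g323800 the numbers were 142, 104 and 87 in the parental libraries, 119 in D2 and 186 in A2. With that identifier removed, A2 was thus the library whose counts were spread over most identifiers, where it had been the one spread over fewest. Its detected identifiers at the total of D2 rose from 3924 to 4878, inside the range of the parental libraries.

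Some of the most abundant other identifiers were shared by the lines. Cre09.g402219 stood at 20710, 22860 and 22270 CPM in WT4, WT5 and WT6, at 28440 in A2 and at 13890 in D2. Cre16.g666301 stood at 5199, 6643 and 8386 CPM in the parental libraries, at 10680 in A2 and 9678 in D2. Both were among the 10 highest of each line. Among the 10 highest of A2 alone, Cre03.g179800 reached 11940 CPM in A2 against 3033 ± 583 (SD, n = 3) in the parental libraries and 887.4 in D2, and Cre08.g359750 reached 8314 CPM in A2 against 2408 to 2617 and 2801.

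Other identifiers among the 10 highest of D2 were low in WT4, WT5 and WT6. Cre14.g634279 reached 31360 CPM in D2, against 738.8 in A2 and 472, 36.1 and 65.3 in WT4, WT5 and WT6. Cre08.g374100 reached 18470 CPM in D2 and 530.4 in A2, against 94.0, 73.8 and 31.6. Cre14.g634322 reached 16860 CPM in D2 and 696.7 in A2, against 152, 10.1 and 7.90. In all of these the lines lay above each of WT4, WT5 and WT6, and D2 lay far above A2. They were not low in every other library of the series. Cre14.g634279 reached up to 6536 CPM in 3 further parental libraries (library names WT1, WT2 and WT3, whose own titles carry another strain number than the labelled CC-3403) and up to 9078 CPM in 4 shallow libraries of E10, another knockout line. Cre14.g634322 reached up to 679.8 and 3663 CPM there, and Cre08.g374100 at most 0.0278 CPM.

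The comparison of both lines with the parental line asks which transcripts differ between these line and parental libraries in darkness. It enters A2 and D2 as replicates of a single knockout group, although they are different lines. Of 8042 identifiers tested, edgeR called 874 (10.9%) at an adjusted p under 0.05, 272 higher (3.38%) and 602 lower (7.49%). On CPM alone, both lines lay above all 3 parental libraries for 609 identifiers (7.57%) and below all 3 for 3295 (41%). The division by direction depended on the scaling: it was 438 higher and 342 lower with RLE factors, 203 and 309 with library totals alone and 361 and 619 without Cre07.g323800. The number of calls fell to 13 without WT4, 71 without WT5 and 127 without WT6, in fits with 2 libraries a side. Of the 874, the 785, 798 and 863 still tested there kept the sign of their fold change. These fits reuse libraries in which the 874 were called, so the kept signs are no separate support. Of the 869 still tested without A2, 65 changed sign, as did 25 of the 868 still tested without D2. Each of these fits leaves a single line library.

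Antenna transcripts were lower in both lines, and more so in A2. The light-harvesting list, for the pigment-binding antenna proteins of both photosystems, took 9.22, 8.33 and 7.80% of the counts in WT4, WT5 and WT6, 0.217% in A2 and 1.72% in D2. The groups did not overlap, and their difference had the smallest exact permutation p that 2 against 3 libraries allow, 0.1. This was not particular to the antenna list. On the same totals it also held for the photosystem, Calvin-Benson, fermentation, carbon concentrating mechanism, housekeeping, nitrogen and arginine, and mitochondrial lists. Without Cre07.g323800 in the totals it did not hold for the carbon concentrating list. There A2 took 0.09646%, above the 0.08015 to 0.09231% of the parental libraries. For the light-harvesting list the parental mean was 39.0-fold above A2 and 4.92-fold above D2. These ratios became 23.0 and 4.90 once Cre07.g323800 was dropped from the totals. The share of D2 was 7.92 times that of A2, and 4.70 times without that identifier.

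**Figure D2:**
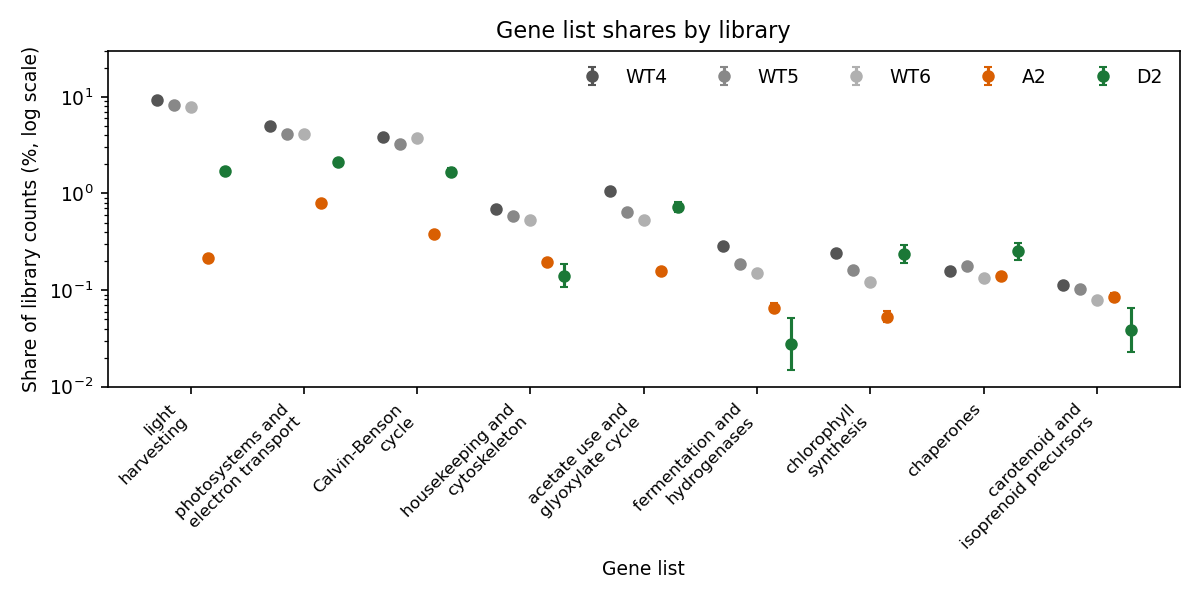
Share of library counts (percent, log scale) taken by each of 9 gene lists, 1 point per library with its Wilson 95% interval. The light-harvesting shares of A2 (0.217%) and D2 (1.72%) lie below those of the 3 parental libraries (7.80 to 9.22%).

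Of 19 tested members of the list 16 fell in the comparison of both lines, beside 7.49% of all identifiers tested. Of the 20 listed, 17 had both lines below every parental library, beside 41% of all tested. Abundant identifiers lay there more often. Of the 164 above 1000 CPM in the parental mean, 84.2% were below every parental library in A2 and 61.6% in D2. The tested members' median log2 fold change was -3.89, or -3.62 with the 1 identifier at 0 in both lines set to its bound, against -0.92 and -0.69 over all 8042 identifiers tested. With library totals alone 7 fell and with RLE factors 13. The calls fell to 1 without WT4, 4 without WT5 and 7 without WT6, where all 19 fold changes were negative with medians of -3.35, -3.29 and -3.83, against -0.24, -0.27 and -0.88 over all identifiers tested in those fits. In A2 alone all 19 fell, beside 19.3% of all identifiers tested that were lower in A2, and in D2 alone 15 fell, beside 7.29%. The D2 count was 9 with library totals alone and 3 without WT5. A2 was lower than D2 in 2 members, beside 2.24% of all identifiers tested. That count was 12 with library totals alone, where 290 of all 8042 were lower, and 11 without WT4, where 246 of 5606 were. These line contrasts take their spread from the 3 parental libraries only and assume that each line varies as they do.

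The most abundant member, Cre01.g066917, stood at 28190, 25920 and 22850 CPM in WT4, WT5 and WT6. It was at 162 CPM in A2 and 2385 in D2. The parental mean was 158 times the A2 level, or 93.5 times without Cre07.g323800 in the totals, and 10.8 times the D2 level. Both lines lay far below the parental libraries. Its log2 fold change over both lines was -5.39 ± 0.78 (SE, edgeR adjusted p = 0.00104). A2 lay below D2 by 2.56 ± 0.67 on the log2 scale, a difference with an edgeR adjusted p of 0.0434 that ended without WT5 (0.273) and without WT6 (0.0827).

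Cre04.g232104 varied little in the parental line. It stood at 12540, 13100 and 13360 CPM there, at 120 in A2 and at 915 in D2. Cre12.g548950 stood at 7226, 6090 and 6240 CPM, at 42.1 in A2 and 416 in D2. Both lines were below all parental libraries, and A2 was below D2 in each.

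Other members fell less. Cre17.g720250 stood at 8122, 12040 and 12300 CPM in the parental libraries, 966 in A2 and 4825 in D2, so the parental mean was 11.2 times A2 (6.64 times without Cre07.g323800 in the totals) and 2.24 times D2. Cre12.g548400 had the smallest adjusted p of the list between the lines. It stood at 4506, 2420 and 2299 CPM in the parental libraries, 48.4 in A2 and 2690 in D2. D2 lay within the parental range, and A2 lay below D2 with an edgeR adjusted p of 0.00697. It did not pass in the comparison of both lines (adjusted p = 0.108). Members of this family can have near-identical copies whose multiply mapping reads the authors discarded, so the level of a single member is uncertain.

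**Figure D3:**
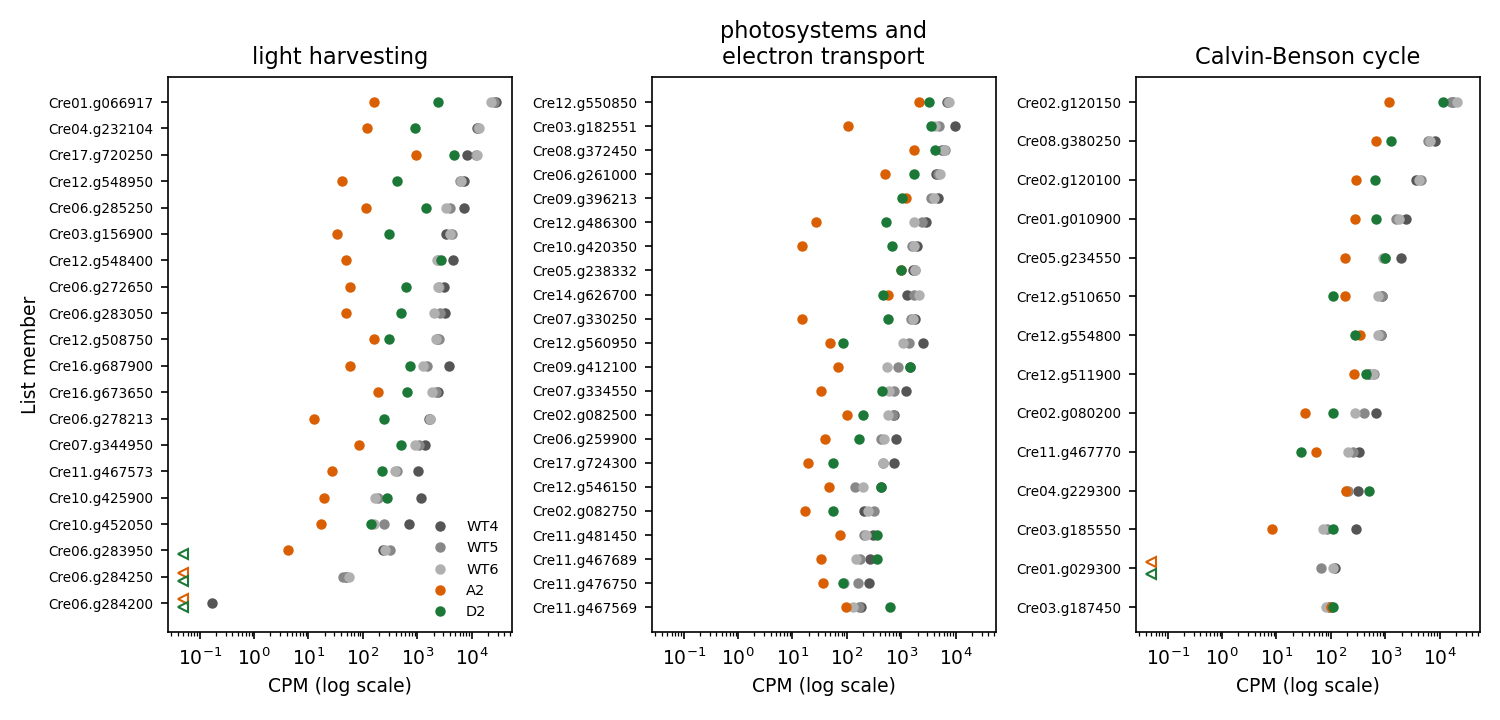
CPM (log scale) of every member of 3 lists, 1 point per library, ordered by parental mean; open triangles at the left are 0 counts in A2 or D2. Both lines lie to the left of all parental points in 17 of the 20 light-harvesting rows.

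Photosystem and electron transport transcripts, for the proteins that turn captured light into electron flow, also fell in part. Of 22 tested members 9 fell over both lines, 19 in A2 and 13 in D2, beside 7.49, 19.3 and 7.29% of all identifiers tested, and none rose. Without WT5 10 fell in A2 and 2 in D2. The list took 5.001, 4.15 and 4.08% of counts in WT4, WT5 and WT6, 0.789% in A2 and 2.12% in D2. The parental mean was 5.59 times A2 and 2.08 times D2, or 3.30 and 2.07 times without Cre07.g323800. Abundant identifiers were lower in general. For the 164 above 1000 CPM in the parental mean, the median ratio to it without Cre07.g323800 was 0.330 in A2 and 0.445 in D2. In D2 the list lay no further below the parental mean than that. In A2 it lay close to that median too, with the parental mean 3.30 times A2 on the same totals. The list's median log2 fold change was -2.46, with no member at 0 in both lines, against -0.92 over all identifiers tested. With library totals alone 2 fell over both lines and 2 in D2, where 1 rose, and without WT4 or WT5 0 fell over both lines (edgeR; 13 fell with limma-voom and 10 with DESeq2 on all 5 libraries). The median was -1.78 without WT4, -1.93 without WT5 and -2.51 without WT6.

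Within the list the lines parted. Cre10.g420350 stood at 1930, 1579 and 1739 CPM in WT4, WT5 and WT6, at 14.7 in A2 and at 665.5 in D2. Cre07.g330250 had a like pattern, with 1810, 1501 and 1637 CPM in the parental libraries, 14.7 in A2 and 582 in D2. Cre03.g182551 stood at 9827, 4928 and 4177 CPM, at 105 in A2 and at 3549 in D2.

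A2 was lower than D2 in 5 of the 22 members, and higher in 0, beside 2.24% of all identifiers tested that were lower in A2 than in D2. The count was 8 with library totals alone and 2 without WT5. For Cre10.g420350 the log2 difference of A2 from D2 was -4.18 (edgeR adjusted p = 0.0120), for Cre07.g330250 -3.98 (0.0146) and for Cre03.g182551 -3.76 (0.0144). The Cre03.g182551 difference ended without WT5 (adjusted p = 0.0691). Cre12.g560950 and Cre17.g724300 were low in both lines, and no difference between the lines passed (adjusted p = 0.786 and 1.00). The former stood at 2460, 1379 and 1080 CPM in the parental libraries, 48.4 in A2 and 83.2 in D2.

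Some members did not pass over both lines. Cre11.g467569 stood at 181, 166 and 131 CPM in WT4, WT5 and WT6, at 96.8 in A2 and at 610 in D2, and passed in no contrast. Cre05.g238332 stood at 1612, 1756 and 1788 CPM, 1008 in A2 and 970.6 in D2. Both lines lay below all parental libraries, with an edgeR adjusted p of 0.273 over both lines, 0.340 in A2 and 0.0450 in D2.

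Calvin-Benson cycle transcripts, for the enzymes of carbon fixation, were lower in part. Of 14 tested members 6 fell over both lines, 10 in A2 and 8 in D2, beside 7.49, 19.3 and 7.29% of all identifiers tested. Their median log2 fold change over both lines was -2.60, against -0.92 over all identifiers. Without WT5 4 fell in A2 and 0 in D2 (edgeR; 1153 identifiers had an unadjusted p under 0.05 in that D2 fit). With library totals alone 3 fell in D2. The list took 3.81, 3.26 and 3.75% of counts in the parental libraries, 0.377% in A2 and 1.68% in D2. The parental mean was 9.56 times A2 and 2.14 times D2, or 5.65 and 2.13 times without Cre07.g323800. For the 164 identifiers above 1000 CPM in the parental mean, the median ratio to it without Cre07.g323800 was 0.330 in A2 and 0.445 in D2. In D2 this list, too, lay no further below the parental mean than that. Without WT4, WT5 or WT6 0 members were called over both lines by edgeR, and 7 were called with limma-voom and 7 with DESeq2 on all 5 libraries. The list's median log2 fold change was -1.96, -2.08 and -2.63 in the fits without WT4, WT5 and WT6.

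Cre02.g120150 was the most abundant member. It stood at 17670, 16010 and 21030 CPM in WT4, WT5 and WT6, at 1162 in A2 and at 11560 in D2. A2 lay 15.7-fold below the parental mean, or 9.29-fold without Cre07.g323800 in the totals, and D2 1.58-fold below it. The near-identical copy that such genes can have makes a single member uncertain. Cre08.g380250 fell in both lines, from 8377, 6066 and 6614 CPM to 684 in A2 and 1303 in D2 (log2 fold change -3.38 ± 0.68, edgeR adjusted p = 0.00950). Cre01.g029300 was at 121, 64.8 and 111 CPM in the parental libraries and at 0 in both lines, at least 16.8-fold lower by the pooled floor, or 10.4-fold without Cre07.g323800.

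Across all 13 lists 42 identifiers fell over both lines and 0 rose; at an unadjusted p under 0.05 there were 2749 of the 8042. Of all identifiers tested 7.49% were called lower. Besides the 3 photosynthesis lists, 2 of 9 carotenoid and isoprenoid precursor identifiers fell, 1 of 16 in chlorophyll synthesis, 1 of 7 in acetate use, 2 of 6 in fermentation, 1 of 10 chaperones, 1 of 6 antioxidant, 2 of 8 housekeeping and cytoskeleton and 1 of 5 nitrogen and arginine identifiers. These counts are of 1 or 2 identifiers, and those of chlorophyll synthesis and chaperones are near the share of all identifiers. None of 5 in the carbon concentrating mechanism and none of 2 in the mitochondrial list passed over both lines. Taken singly, the lines had more falls in most of these lists. In the same order, ending with carbon concentration and mitochondria, A2 had 3, 8, 5, 4, 4, 1, 3, 3, 0 and 2, beside 19.3% of all identifiers tested. D2 had 3, 3, 3, 3, 3, 3, 6, 2, 1 and 2, beside 7.29%. With library totals alone D2 had 0, 0, 0, 1, 0, 0, 3, 0, 0 and 1. Of the 42, 1 stayed called without WT4, 4 without WT5 and 10 without WT6, and 0 changed sign in those fits. As the 42 were called in fits of the same libraries, the kept signs are no separate support.

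The housekeeping list was not level between the groups. It took 0.686, 0.579 and 0.532% of counts in WT4, WT5 and WT6, 0.197% in A2 and 0.141% in D2, without overlap. The parental mean was 3.04 times A2, or 1.80 times without Cre07.g323800 in the totals. Cre12.g542250 stood at 615, 352.5 and 252 CPM in the parental libraries, 8.42 in A2 and 0 in D2 (log2 fold change -5.81 ± 1.23, edgeR adjusted p = 0.0117). Cre12.g549550 stood at 1027, 835 and 673 CPM, 50.5 in A2 and 27.7, a single count, in D2. These 2 fell alongside the photosynthesis lists.

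The chaperone, fermentation and antioxidant lists held 1 identifier each that was called lower and was at 0 in both lines. Cre07.g318800 of the chaperone list stood at 104, 123 and 94.8 CPM in the parental libraries and was at least 18.3-fold lower by the pooled floor. Cre03.g165700 of the fermentation list stood at 152.5, 79.7 and 59.6 CPM and was at least 16.6-fold lower. Without Cre07.g323800 these bounds were 11.3 and 10.2-fold. Both bounds rest on A2, as D2 alone allows up to 83.2 CPM.

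Several list members were high in one line and not in the other. In D2, Cre14.g617450 of the chaperone list reached 1137 CPM, against 25.7, 58.5 and 40.2 in WT4, WT5 and WT6 and 16.8 in A2. Cre02.g090850 of the same list reached 832 CPM in D2, against 41.8, 43.6 and 36.6, and 0 in A2. Cre01.g055408 of the acetate list reached 3023 CPM in D2, against 244, 108 and 80.4, and 196 in A2.

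All of these rose in D2 against the parental libraries, beside 3.06% of all identifiers tested that were higher in D2. The log2 fold changes were 3.59 ± 0.57 for Cre14.g617450 (edgeR adjusted p = 0.00176), 3.19 ± 0.50 for Cre02.g090850 (0.00157) and 3.28 ± 0.50 for Cre01.g055408 (0.00140). In D2, 2 of 10 chaperones, 1 of 7 acetate and 1 of 16 chlorophyll synthesis identifiers rose, and the same lists also held 3, 3 and 3 that fell. The falls numbered 0, 2 and 0 with RLE factors or without Cre07.g323800, and 0 in each list with library totals alone or without WT5 (edgeR; 1124 and 1153 identifiers had an unadjusted p under 0.05 in the last 2 fits). The rises numbered 2, 1 and 1 in each of these. The riser of the chlorophyll list was Cre03.g158000, at 1525 CPM in D2, 42.1 in A2 and 192, 99.1 and 103 in the parental libraries.

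In A2 1 of 6 antioxidant, 1 of 6 fermentation and 1 of 8 housekeeping identifiers rose, beside 10.9% of all identifiers tested. Cre09.g417150 of the antioxidant list stood at 156, 154 and 170 CPM in WT4, WT5 and WT6, at 783 in A2 and at 111 in D2. A2 lay above the other 4 libraries, with a log2 fold change of 2.43 ± 0.43 against the parental libraries (edgeR adjusted p = 0.00180). The difference from D2 was 4.14 ± 0.79 (adjusted p = 0.0126), and ended with library totals alone (0.0687). Cre03.g199800 of the fermentation list stood at 48.6, 61.9 and 48.8 CPM in the parental libraries, 128 in A2 and 0 in D2 (adjusted p = 0.0462 for A2). Cre09.g396400 of the housekeeping list stood at 13.7, 7.83 and 10.1 CPM, 37.9 in A2, which is 18 counts, and 0 in D2 (0.0481). With library totals alone no member of the fermentation or housekeeping list was called higher in A2 (edgeR; 3424 identifiers had an unadjusted p under 0.05 in that fit), nor was any of the housekeeping list without WT4 (2907).

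Identifiers called higher over both lines had in most cases few counts in the parental line. Of the kept identifiers that were called and lay above all parental libraries in both lines there were 57, and 47 of them were kept by their line counts alone, which made a rise likely by construction. D2 was higher than A2 in 54 of the 57. Of the 57, 4 stayed called without WT4, 20 without WT5 and 19 without WT6, and 0 changed sign there. With RLE factors and with DESeq2 all 57 stayed called, and 0 changed sign. The 57 were selected with both lines above every parental library, which left little room for a change of sign.

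Among the 10 with the largest fitted rise, Cre14.g634322 and Cre01.g006600 had the most line counts. Cre01.g006600 stood at 8.84, 3.73 and 6.46 CPM in WT4, WT5 and WT6, at 633.5 in A2 (301 counts) and at 11340 in D2 (409 counts). Its log2 fold change was 8.83 ± 1.04 (SE, edgeR adjusted p = 0.000587). Cre01.g017701 had 14.1 CPM in WT4 and 0 in WT5 and WT6, with 389 CPM in A2 and 4964 in D2. Cre14.g634322, described above, had a log2 fold change of 6.35 ± 1.19 and an adjusted p of 0.00685.

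The other 7 of these 10 had 12 to 54 counts in A2 and 14 to 44 in D2. Cre21.g753097 had 25.3 CPM in A2 and 388 in D2, where WT4 had 0.0850 and the other parental libraries 0. Cre17.g734725 had 67.4 CPM in A2 and 1220 in D2, against 3.06, 1.49 and 5.03. Their folds over parental libraries at or near 0 depend on the prior count and are no bound.

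The pooled level of E10 was set beside the parental libraries with the library names WT1, WT2 and WT3, and lay above all 3 of them for 14 of the 57 identifiers (24.6%), against 23.6% of all 8042 tested. Cre01.g006600 had 0 counts in E10 and 0.0374 CPM in the pooled WT1 to WT3, far below its level in A2 and D2. Among the 57, 2 identifiers, Cre14.g634236 and Cre14.g634279, were neighbours, with 0 genes between them, in the RefSeq table.

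**Figure D4:**
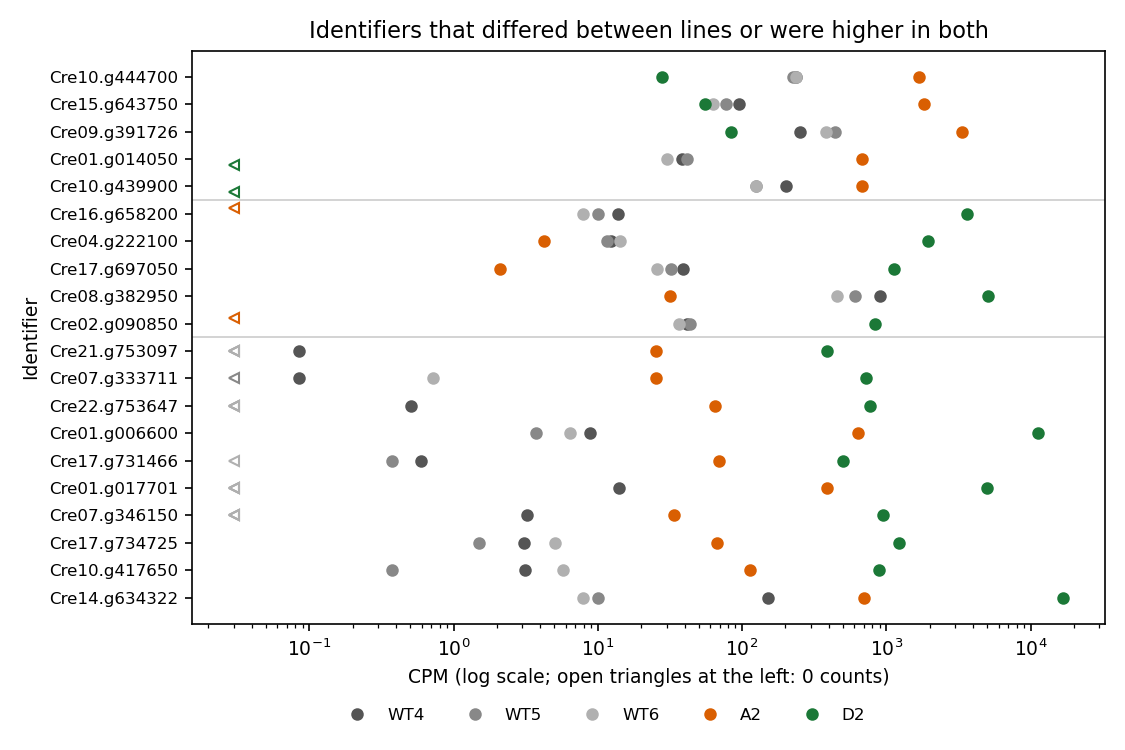
CPM (log scale) of 5 identifiers higher in A2 than in D2 (top), 5 higher in D2 than in A2 (middle) and 10 with the largest fitted rise over both lines (bottom), 1 point per library; open triangles at the left are 0 counts. In the bottom set D2 lies to the right of A2 in every row, an order that the limit of 10 counts favours at the depth of D2.

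The 10 identifiers with the largest fitted fall had 0 counts in both lines, and their order depends on the prior count. Some detected identifiers also lay far below: by pooled counts Cre12.g548950 was 95.2-fold and Cre01.g066917 80.5-fold below the parental mean, or 58.9 and 49.8-fold without Cre07.g323800. Of 486 kept identifiers that were called lower and lay below all parental libraries in both lines, 184 were at 0 in both. Of the 486, 450 were kept by their parental level alone, a condition that favours falls by construction. Cre02.g077850 stood at 812, 634 and 568 CPM in WT4, WT5 and WT6 and was at least 114-fold lower by the pooled floor, or 70.7-fold without Cre07.g323800. Cre03.g204450 stood at 733, 307 and 213 CPM, at least 71.2-fold lower. Cre03.g157700 stood at 278, 296 and 350 CPM, at least 52.5-fold lower. The other 7 of the 10 were at least 26.5 to 44.0-fold lower.

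Not all of these were detected in the other parental libraries. Cre16.g693200, at 304, 204 and 225 CPM in WT4, WT5 and WT6, had 0 counts in the pooled WT1 to WT3, and Cre02.g075000, at 113, 203 and 205 CPM, had 0.174 CPM there. Without WT4 5 of the 486 stayed called, and none of the 184 at 0. Without WT5 19 of the 486 stayed called, and without WT6 56. In these fits 0 of the 486 changed sign. Their selection, with both lines below every parental library, left little room for such a change.

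The level in the parental line set what could be seen. Among identifiers kept by their parental level, 268 of 2793 were at 0 in A2, 1150 in D2 and 184 in both. At 20 to 50 CPM in the parental mean, 63.3% were at 0 in D2, where a median of 1.30 counts would be drawn at the parental level, and 13.8% were at 0 in A2, where it would be 10.2. Above 1000 CPM 2.44% were at 0 in D2 and 1.22% in A2, of 164 identifiers. Among these 164 the median ratio to the parental mean, without Cre07.g323800 in the totals, was 0.330 in A2 and 0.445 in D2.

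The members just inside and outside the limits differed little. The lowest parental level among those kept was 20.05 CPM and the highest among those left out 19.97 CPM, and 15 identifiers had exactly 10 counts as their smaller line count, while 30 had one fewer. Without Cre07.g323800 in the totals 2903 identifiers were kept.

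Each line was also set apart from the parental libraries on its own, with the same controls. A2 had 2424 calls (30.1%), 875 higher and 1549 lower. D2 had 832 (10.3%), 246 higher and 586 lower. Of the lower ones, 674 of A2 and 250 of D2 were at 0 in that line. The D2 split turned to 284 higher and 220 lower with RLE factors, 301 and 90 with library totals alone, and 276 and 275 without Cre07.g323800, so the balance of directions in D2 follows the scaling. The A2 split was 1163 and 1110 with RLE factors and 644 and 1475 with library totals alone.

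A2 differed from D2 in 467 identifiers (5.81%), 287 higher in A2 (3.57%) and 180 lower (2.24%). With RLE factors the split was 216 and 210, with library totals alone 35 and 290, and without Cre07.g323800 154 and 237. Of the 5 with the smallest p in each direction, Cre09.g391726 was at 3353 CPM in A2 and 83.2 in D2, between 252 and 440 in the parental libraries. Cre15.g643750 was at 1831 CPM in A2, 63.2 to 95.3 in the parental libraries and 55.5 in D2, where its 2 counts (Poisson 95% interval 6.72 to 200.3 CPM) do not separate it from them. In the other direction Cre08.g382950 was at 5047 CPM in D2, 31.6 in A2 and 457 to 907 in the parental libraries. A2 lay above and D2 below the parental range in Cre09.g391726, and the reverse held in Cre08.g382950.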

How the data were processed

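RNA of 12 samples was made into CEL-Seq libraries, a method that reads near the 3' end of each transcript after barcoding, pooling and linear amplification. The authors mapped these reads with BWA MEM against transcriptome 281_v5.6, dropped reads with several positions and counted with MapAndGo, per the labels' protocols. The submitters' processing notes also name edgeR. The deposited values are raw counts per identifier, 17744 in 12 columns, with 0 columns unmapped. Discarding multiply mapped reads can lower the counts of genes with near-identical copies.

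Columns were assigned by title. CPM used library totals, with and without Cre07.g323800. edgeR 4.0.16 in R 4.3.3 was run with filterByExpr by genotype, TMM factors (2.08 for D2, 0.745 to 1.01 elsewhere), glmQLFit and glmQLFTest, two-sided, with Benjamini-Hochberg adjustment at 0.05 over 8042 identifiers. SEs were taken as the absolute log2 fold change over the square root of F. A fit with genotype gave both lines against WT4 to WT6, and a fit with 3 groups gave A2, D2 and their difference, with spread from the 3 parental libraries alone. Shares were compared by exact permutation over 10 arrangements, with Wilson 95% intervals. Floors are 3 counts. Alternatives were RLE factors, library totals alone, Cre07.g323800 left out, other filters, DESeq2 1.42.0, limma-voom (limma 3.58.1), all 6 parental libraries, a replicate block and each library left out. The test was run on simulated counts first. Python 3.11.15 computed shares and plots.

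Parental libraries were compared in pairs with a chi-square test on identifiers of at least 20 counts. The lowest statistic per degree of freedom, 8.79 for WT5 and WT6, showed no library deposited more than once.

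Identifiers named are Cre07.g323800 and Cre12.g509650, the 10 largest called rises and 10 largest called falls with both lines outside the parental range, the 10 highest in CPM in A2, in D2 and in the parental mean, from each list the 3 members of lowest p (or fewer) and every member past the threshold, and the 5 with the smallest p in A2 against D2 in each direction. Others, among them Cre12.g548400, Cre11.g467569, Cre05.g238332, Cre14.g617450, Cre03.g158000, Cre03.g199800, Cre09.g396400 and Cre14.g634236, were chosen after their values were seen. The members, lists and tests were chosen with earlier results of these data known. Locus tags of the RefSeq table (assembly v5.5) matched 17742 identifiers, without symbols, and it served only to find neighbours because the authors used another build.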

Additional observations from a re-analysis of the deposited data

Results flagged for a closer look

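The 10 identifiers here were picked out because A2 and D2 differed from each other in the direct test of that difference (edgeR quasi-likelihood, 3 groups, spread from the 3 parental libraries alone). The 5 higher in A2 had log2 differences of 7.24 for Cre10.g444700, 6.36 for Cre15.g643750, 6.65 for Cre09.g391726, 14.4 for Cre01.g014050 and 14.42 for Cre10.g439900, with adjusted p from 0.00265 to 0.00439. In CPM A2 was 60.9, 33.0 and 40.3 times D2 in the first 3, which had 1, 2 and 3 counts in D2, and their ratios carry that counting error. The last 2 had 0 counts in D2, and A2 was at least 8.10 and 8.20-fold higher by the floor of D2. The fitted differences of 14.4 depend on the prior count and are no bound.

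The 5 higher in D2 had log2 differences of A2 from D2 of -15.52 for Cre16.g658200, -7.52 for Cre04.g222100, -7.74 for Cre17.g697050, -6.00 for Cre08.g382950 and -13.39 for Cre02.g090850, with adjusted p from 0.00131 to 0.00253. Cre16.g658200 had 131 counts in D2 and 0 in A2, so D2 was at least 575-fold higher by the floor of A2, and Cre02.g090850 had 30 and 0, at least 132-fold higher. Cre08.g382950 had 182 counts in D2 and 15 in A2, a CPM ratio of 160. All 10 kept their direction and stayed called under each of the 3 scalings and without each parental library that left them tested; Cre16.g658200 was not tested without WT4. Each line has 1 library, so whether these differences belong to the lines or to these 2 libraries cannot be told apart.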

How the results depend on the processing

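The comparison of both lines was fitted under 14 alternatives and each contrast of single lines under 6. Against 874 calls, both lines gave 512 with library totals alone, 1470 with no filter on low counts, 459 with limma-voom and 13 with all 6 parental libraries, of which the 3 added ones have titles with another strain number than the labelled line. RLE factors (780), leaving out Cre07.g323800 (980), testing only kept identifiers (730) and DESeq2 (1148, with no adjusted p for 3118 of 8042) stayed within 1.5 times. Leaving out 1 library gave 13 (WT4) to 2486 (D2) calls. D2 against the parental libraries gave 504 with RLE factors, 391 with library totals alone and 551 without Cre07.g323800, against 832, and 371 to 900 without 1 parental library. A2 gave 1830 to 3235 and A2 against D2 469 to 920 on leaving out 1 parental library. Leaving out A2 or D2 leaves 1 line, which is assumed to vary like the parental libraries. The cause of these shifts was not tested.

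Library names share the numbers 5 and 6 between parental and line libraries (WT5 with A2, WT6 with D2), and with a replicate block by that number 18 identifiers were called, 4 higher and 14 lower. The deviations of same-numbered libraries had correlations of 0.0394 (WT5 with A2) and -0.0563 (WT6 with D2). Each correlation with D2 was that with A2 with its sign reversed (-0.0394 for WT5 with D2, 0.0563 for WT6 with A2). The check therefore cannot tell pairing by number from the difference between A2 and D2. Whether same-numbered libraries share more than a number was not tested.

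Differences in list shares (lines minus parental, percentage points) ran over the libraries left out from -8.23 to -6.73 for light harvesting, -3.62 to -2.29 for photosystems, -3.23 to -1.92 for the Calvin-Benson cycle, -0.0597 to -0.0128 for carotenoids, -0.579 to -0.00961 for acetate use, -0.0531 to -0.0289 for carbon concentration and -0.193 to -0.0756 for nitrogen and arginine. They changed sign for chlorophyll synthesis (-0.122 to 0.0600), chaperones (-0.0166 to 0.0958) and antioxidants (-0.0589 to 0.0444). With Cre07.g323800 out of the totals the values were -0.00666 for carotenoids, 0.0922 for chaperones, 0.0485 for antioxidants, where the sign also changed, -0.0229 for carbon concentration and -0.0121 for chlorophyll synthesis. The share of Cre07.g323800 differed by 0.361 points without A2 and 39.2 without D2.

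Of the named identifiers, 91 fold changes were recomputed under up to 8 alternatives, 700 values in all. Direction and call held in 494, the call was lost in 182 and gained in 22, and 2 reversed. The joint log2 fold change of Cre07.g323800 was -0.986 without A2 (adjusted p = 0.430) and 3.32 without D2, and that of Cre09.g417150 was -1.58 without A2 (adjusted p = 0.270) and 2.24 without D2. For 24 identifiers named only for abundance or for a difference between the lines, no joint fold change is given: the choice to leave it out was made after seeing that 18 of them changed sign under at least 1 of the 8 alternatives. Depth limits D2 most, since 0 counts there allow up to 83.2 CPM.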
